A study of Mus musculus with 4 samples.

Results

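The genes described are the liver's bile salt and canalicular transporters: the uptake carrier Slc10a1 and the ATP-binding cassette pumps Abcb11, Abcb4, Abcc2, Abcc3, Abcc4, Abcg5 and Abcg8. They were chosen by name, as all non-control probes whose gene name in the array files is on that list. This gave 12 probes of 41174 on the array, and all 8 genes were among the 18044 genes tested. All livers came from male C57BL/6 mice on a high-fat diet that received intraperitoneal injections of an antisense oligonucleotide (ASO, a short strand that directs the breakdown of a matching RNA) at 25 mg/kg body weight, 2 times a week for 4 weeks. The control livers 1, 2, 4 and 5 had received a scrambled control oligonucleotide. Livers 6, 7, 9 and 10, labelled Plin2-ASO, had received an oligonucleotide against Plin2, which codes for a coat protein of lipid droplets. Each of the 4 two-colour Agilent arrays paired 1 control liver (Cy5, red) with 1 liver labelled Plin2-ASO (Cy3, green), so the comparison asks how the treatment changed transporter RNA within a pair. An ASO given this way reaches many tissues and cell types, and untreated or chow-fed livers were not analysed here.

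Hepatocytes take up bile salts from portal blood across the sinusoidal membrane and secrete them into the canaliculus, the narrow channel between neighbouring cells where bile begins. Bile salts, phospholipids, sterols and organic anions each leave through pumps of their own. When canalicular flow is impaired, other pumps on the blood side let bile salts and conjugates return to the circulation. Several of these genes are known targets of nuclear receptors: the bile acid receptor FXR for Abcb11, the oxysterol receptor LXR for Abcg5 and Abcg8, and the xenobiotic receptors CAR and PXR for the Abcc pumps.

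Abcg5 and Abcg8 lie head to head, and their proteins work as a pair, so the stretch between their starts is shown first. It spans 109 bases at chr17:84683012-84683120 of GRCm38.p6 (RefSeq), written on the plus strand, with Abcg5 starting to its left on the minus strand and Abcg8 to its right on the plus strand. Capitals mark TTATCT, the reverse complement of AGATAA, the core motif of GATA factors, which was found 2 times, from bases 17 and 47.
Abcg5 to Abcg8: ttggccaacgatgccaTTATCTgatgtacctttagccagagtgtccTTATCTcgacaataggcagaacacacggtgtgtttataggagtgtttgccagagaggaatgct
Promoter windows of 300 bases, from 250 before to 50 after a RefSeq start, were matched by symbol for 7 of the 8 genes, in 10 windows. Motifs were searched on both strands. AGATAA and TATAAA share the letters ATAA, and their matches between Abcg5 and Abcg8 do not overlap. AGATAA stood in a window of Abcg5 and of Abcg8, against 11.2% of all 32851 windows. Both of these windows contain the stretch of 109 bases above, so its matches are the same bases counted for both genes. TATAAA, the TATA box, stood in a window of Abcg5, Abcg8 and Slc10a1, against 13.6% of all windows. Here too Abcg5 and Abcg8 share the match in that stretch. AGGTCA, the core bound by many nuclear receptors, stood in a window of Abcb11, Abcc2 and Slc10a1, against 16.3% of all windows. These matches describe letters only, and no binding was measured.

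The measurements themselves rest on probes of 60 bases. Shown are the only Slc10a1 probe, both Abcb4 probes, whose mean ratios had opposite signs, and the Abcg8 probe that was measured on all arrays. No base is in capitals. Positions are those of the array files, in mouse build mm7: chr12:78923269-78923328 (minus strand) for Slc10a1, chr5:8996752-8996811 and chr5:8978600-8978659 (both plus strand) for the brighter and the second Abcb4 probe, and chr17:82989909-82989968 (plus strand) for Abcg8.
Slc10a1: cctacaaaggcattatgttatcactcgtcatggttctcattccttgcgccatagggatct
Abcb4, brighter probe: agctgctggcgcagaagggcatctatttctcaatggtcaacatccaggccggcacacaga
Abcb4, second probe: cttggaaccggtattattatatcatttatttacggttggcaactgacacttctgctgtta
Abcg8, second probe: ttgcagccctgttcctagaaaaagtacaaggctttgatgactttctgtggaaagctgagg

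Plin2 itself, the gene the oligonucleotide was made against, did not fall. Its log2 ratios of Plin2-ASO over control were 0.24, 0.15, 0.83 and 0.36 on arrays 1 to 4, a mean of 0.40 ± 0.15 (SE, n = 4, adjusted p = 0.156). All directions below therefore rest on the dyes given in the labels. If the labels of the dyes were exchanged, every direction would turn. All arrays carried the groups in the same dyes, so a dye effect and the treatment cannot be told apart. The arrays lay on 1 slide read in 1 scan. Array 3 stood apart: 7.61% of its spots were marked as outliers (the other arrays lay between 1.5% and 3.83%). The mean correlation of its ratios with those of the other arrays was 0.33, against 0.51 to 0.65 for arrays 1, 2 and 4. Its ratios also correlated with probe GC content across probes (r = -0.28), as did those of array 4 with the other sign (r = 0.26).

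Among the 8 transporters Slc10a1 rose and Abcg5 fell, and the other 6 did not pass the test (limma, Benjamini-Hochberg over all genes, adjusted p under 0.05). Over all genes 3.67% were called higher and 6.07% were called lower. For 16076 genes measured on every array, the levels of the 4 and 4 livers did not overlap and were higher with Plin2-ASO in 5.9%, and lower in 10.7%. Of the 6 transporters measured on every array, Slc10a1 was without overlap on the higher side and Abcg5 on the lower side. With 8 genes these counts are too small to set apart from the shares over all genes. The median log2 ratio of the 8 genes was 0.08, against -0.03 over all genes tested. The SD of a gene's ratio between arrays had a median of 0.49 among the transporters and 0.31 over all genes.

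Slc10a1 (NTCP) is the sodium-dependent carrier that brings conjugated bile salts from blood into hepatocytes. Its normalized log2 level was 12.53, 12.40, 12.72 and 11.96 in control livers 1, 2, 4 and 5. In livers 6, 7, 9 and 10, labelled Plin2-ASO, it was 13.73, 14.10, 13.57 and 13.37. Every liver labelled Plin2-ASO lay above every control liver. The log2 ratios on arrays 1 to 4 were 1.20, 1.70, 0.84 and 1.41, higher on 4 of 4 arrays and lowest on array 3. The mean was 1.29 ± 0.17 (SE, n = 4), a 2.44-fold rise with a 95% interval of 0.89 to 1.68 on the log2 scale (adjusted p = 0.00618). The rise passed the test with any 1 array left out, with means between 1.15 and 1.44 and adjusted p at most 0.0443.

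**Figure D1:**
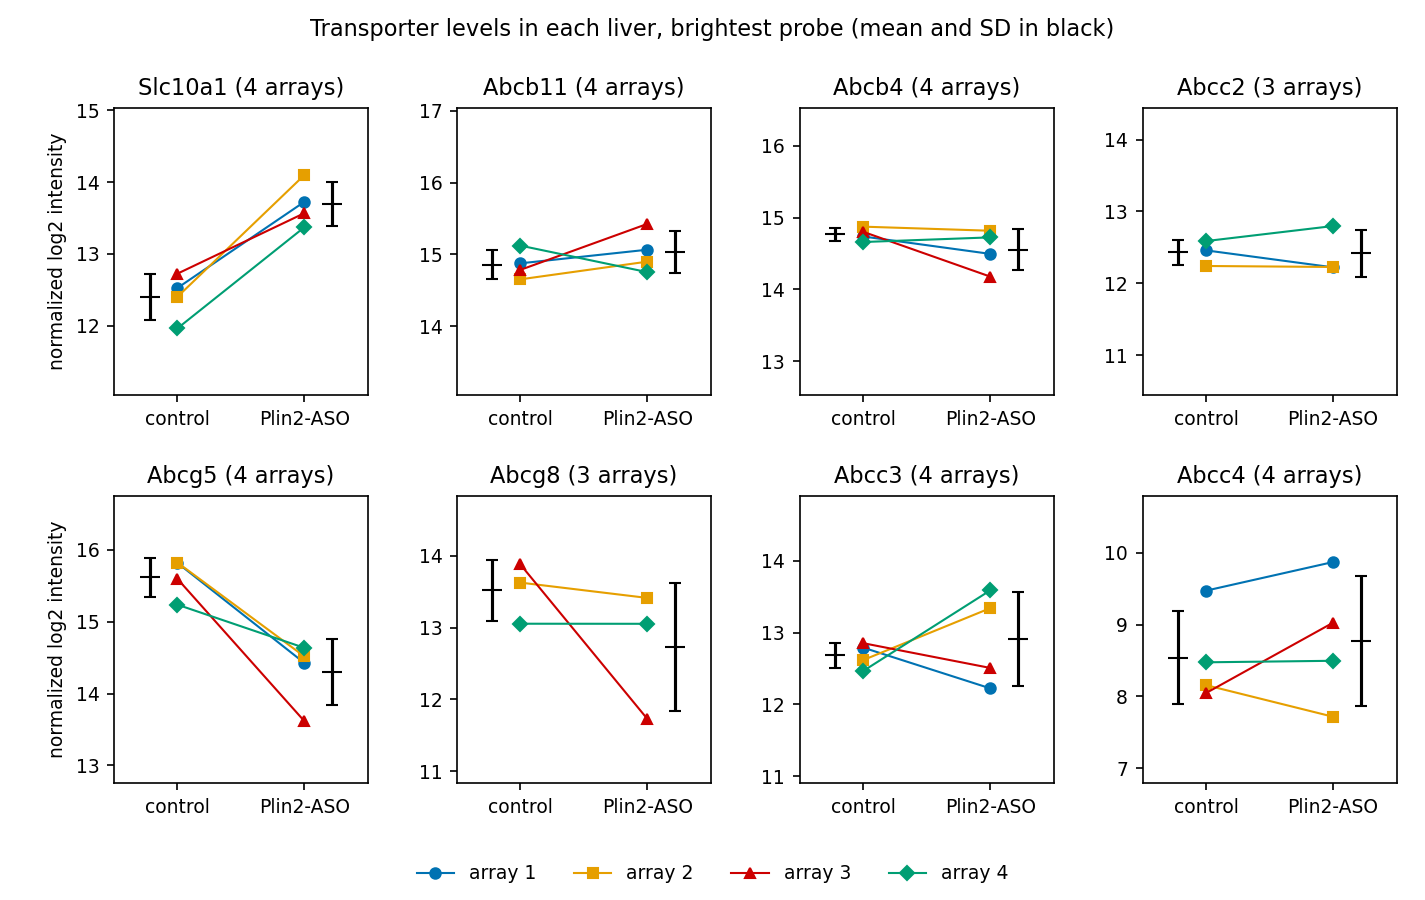
Normalized log2 intensity (y axis) of each transporter's brightest probe in the control liver and the liver labelled Plin2-ASO of each array, joined by a line, with the mean and SD of each group in black. The panels share the length of the y axis but not its position. The groups are fully separate for Slc10a1, whose 4 treated livers lie from 13.37 to 14.10 above all controls, and for Abcg5, whose treated livers lie from 13.61 to 14.64 below all controls.

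The canalicular pumps for bile salts, phospholipids and conjugated anions gave small mean ratios, none of which passed the test. Abcb11 (BSEP) is the main pump for bile salts into bile. Its log2 level was 14.88, 14.65, 14.79 and 15.12 in control livers 1, 2, 4 and 5, and 15.07, 14.90, 15.43 and 14.75 in livers 6, 7, 9 and 10. The groups overlapped, and the pair on array 4 ran against the other 3. The mean log2 ratio was 0.18 ± 0.18 (SE, n = 4) with a 95% interval of -0.25 to 0.60 (adjusted p = 0.576). It was 0.02 without array 3 and 0.36 without array 4.

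Abcb4 (MDR2) moves phosphatidylcholine to the outer leaflet of the canalicular membrane, from where it enters bile. Its brighter probe read 14.74, 14.87, 14.80 and 14.66 in control livers 1, 2, 4 and 5, a narrow range. In livers 6, 7, 9 and 10 it read 14.49, 14.82, 14.18 and 14.72, overlapping the controls. The mean log2 ratio was -0.21 ± 0.15 (SE, n = 4, adjusted p = 0.416), lower on 3 of 4 arrays, and -0.08 without array 3. The second, dimmer probe gave ratios of 0.10, 0.84, -0.31 and 0.52 on arrays 1 to 4, with a mean of 0.28 and an SD of 0.50. The sign of Abcb4 therefore depended on the probe, and the mean of both probes was 0.035 in the same fit. On both probes array 3 had the lowest ratio.

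Abcc2 (MRP2) exports bilirubin glucuronides, glutathione conjugates and other organic anions into bile. On arrays 1, 2 and 4 its level was 12.46, 12.24 and 12.59 in control livers 1, 2 and 5, and 12.22, 12.23 and 12.80 in livers 6, 7 and 10. Array 3 was left out for this gene because the scanning software marked its spot as an outlier; with the spot kept, its ratio there was -0.78. The mean log2 ratio was -0.01 ± 0.17 (SE, n = 3) with a 95% interval of -0.42 to 0.39 (adjusted p = 0.969). The sign near 0 turned with median centring, with the software's own ratios and with a correction for probe GC content.

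Abcg5 and Abcg8 each code for 1 part of the pump that sends cholesterol and plant sterols into bile. The control livers 1, 2, 4 and 5 had Abcg5 levels of 15.82, 15.82, 15.60 and 15.24. Livers 6, 7, 9 and 10 had 14.42, 14.52, 13.61 and 14.64, all below every control liver. The log2 ratios on arrays 1 to 4 were -1.39, -1.31, -1.98 and -0.60, lower on 4 of 4 arrays. The largest fall was on array 3 and the smallest on array 4. The mean was -1.32 ± 0.22 (SE, n = 4), a 2.50-fold lower level with a 95% interval of -1.84 to -0.81 on the log2 scale (adjusted p = 0.0137). When array 1 was left out the mean was -1.30 and the call ended (adjusted p = 0.0847), as it did for array 2 (-1.33, adjusted p = 0.0721). The call stood when array 3 was dropped (-1.10, adjusted p = 0.00256) or array 4 (-1.56, adjusted p = 0.0104). On the authors' series table the mean was -1.16 and missed the threshold (adjusted p = 0.0531). The software's own ratios, with outlier spots left out, gave the same mean for Abcg5 and passed (adjusted p = 0.0488).

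Abcg8 did not pass the test. Its brighter probe was measured on arrays 2, 3 and 4, since its spot on array 1 was marked as an outlier (ratio -0.38 with the spot kept). It read 13.63, 13.88 and 13.05 in control livers 2, 4 and 5, and 13.41, 11.73 and 13.05 in livers 7, 9 and 10. Liver 9, on array 3, was far below all others, and the 2 remaining pairs differed little. The mean log2 ratio was -0.79 ± 0.42 (SE, n = 3, adjusted p = 0.282), and without array 3 it was -0.11. The second probe, whose sequence is given above, had ratios of -0.55, 0.11, -1.65 and 0.47 on arrays 1 to 4, with a mean of -0.41 and an SD of 0.93. It too had its lowest ratio on array 3. Among all genes the SD of Abcg8 between arrays lay at the 99.3rd percentile.

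Abcg5 and both Abcg8 probes ordered the arrays alike, with array 3 lowest and array 4 highest. This order was not particular to the pair. The brighter Abcb4 probe had it too (-0.24, -0.06, -0.62 and 0.06 on arrays 1 to 4). So did the second Abcc3 probe, and Abcc2 with its outlier spot kept. Slc10a1, Abcb11 and Abcc4 did not have it. The difference in log2 ratio between Abcg5 and Abcg8 was taken within arrays, after the values were seen. Against the second Abcg8 probe, Abcg5 was lower on 4 of 4 arrays, with a mean difference of -0.92 (SD 0.46). Against the brighter probe it was lower on 2 of 3 arrays, with a mean difference of -0.51 (SD 0.64). An exact two-sided sign-flip test gave p = 0.125 and p = 0.5, but it cannot go below 0.125 with 4 arrays or 0.25 with 3, so it does not settle whether the genes differed.

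**Figure D2:**
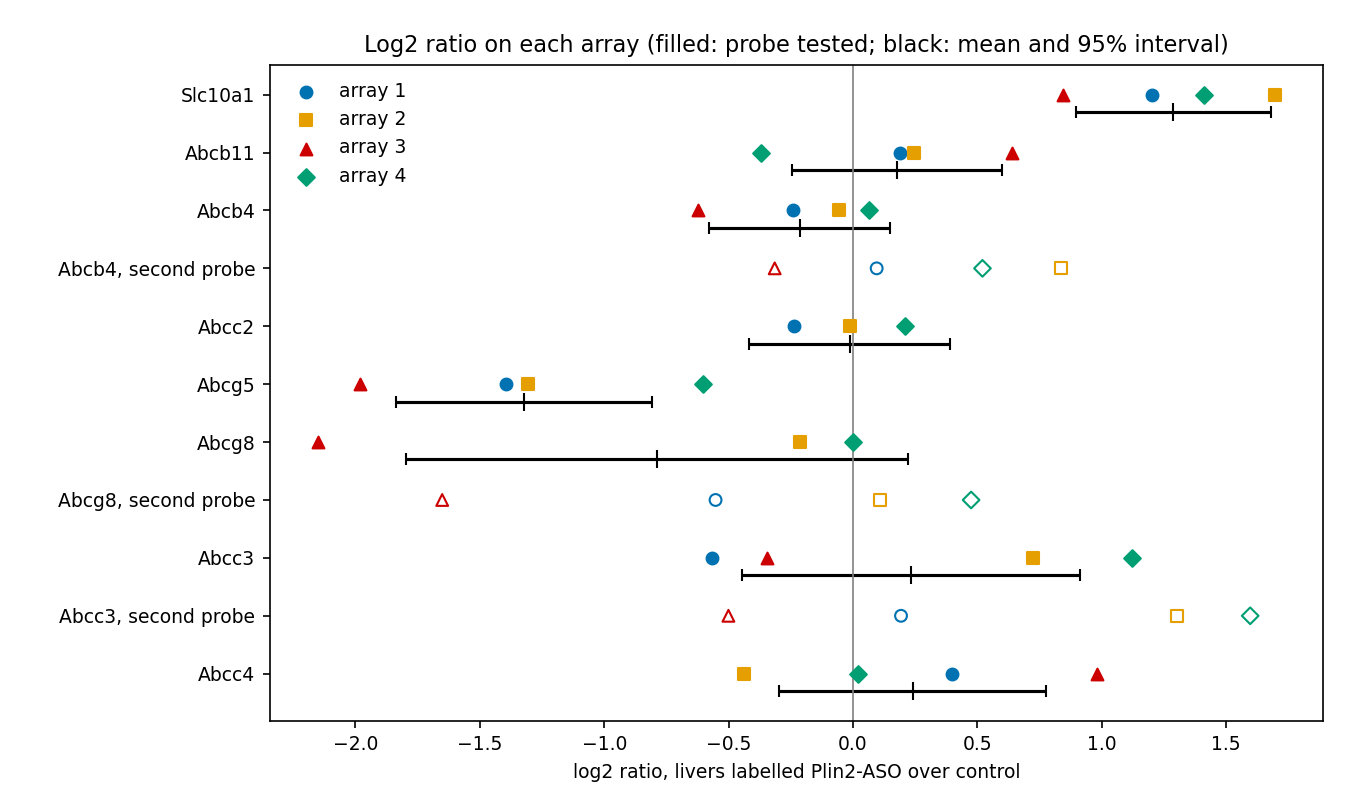
Log2 ratio of livers labelled Plin2-ASO over control (x axis) for the 11 probes past the background filter, with 1 symbol for each array. Filled symbols are the probe tested for each gene, with its mean and 95% interval in black, and open symbols are second probes. Slc10a1 lies above 0 and Abcg5 below 0 on all 4 arrays, and Abcg8 has its lowest value, -2.15, on array 3.

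Abcc3 and Abcc4 (MRP3 and MRP4) sit on the blood side of the hepatocyte and export conjugates and bile salts. Abcc3 had a mean log2 ratio of 0.23 ± 0.29 (SE, n = 4, adjusted p = 0.653), with arrays in disagreement. Its level was 12.79, 12.62, 12.85 and 12.47 in control livers 1, 2, 4 and 5, and 12.22, 13.34, 12.51 and 13.59 in livers 6, 7, 9 and 10. On this probe livers 7 and 10 were above and liver 6 was below all controls. The ratios on arrays 1 to 4 were -0.57, 0.72, -0.34 and 1.12. The second probe read 9.56, 9.70, 10.56 and 9.23 in control livers 1, 2, 4 and 5, and 9.75, 10.998, 10.06 and 10.83 in livers 6, 7, 9 and 10. There the controls spread as widely (SD 0.57) as the treated livers (SD 0.60), with livers 7 and 10 above all controls and livers 6 and 9 within their range. Its ratios were 0.19, 1.30, -0.50 and 1.60, with arrays 2 and 4 again the highest and a mean of 0.65 (SD 0.98). Among all genes the SD of the brighter probe between arrays lay at the 97.1st percentile, and its mean was -0.063 without array 4.

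Abcc4 was read at lower intensity, with its brighter probe at the 29.1st percentile of levels over all genes. Its brighter probe read 9.47, 8.16, 8.05 and 8.48 in control livers 1, 2, 4 and 5, and 9.87, 7.72, 9.03 and 8.50 in livers 6, 7, 9 and 10. The groups overlapped, and both livers of array 1 were high. The mean log2 ratio was 0.24 ± 0.23 (SE, n = 4, adjusted p = 0.546), and it was -0.0066 without array 3. The second Abcc4 probe was well above background in 2 control livers and 0 livers labelled Plin2-ASO, and it was not tested.

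**Figure D3:**
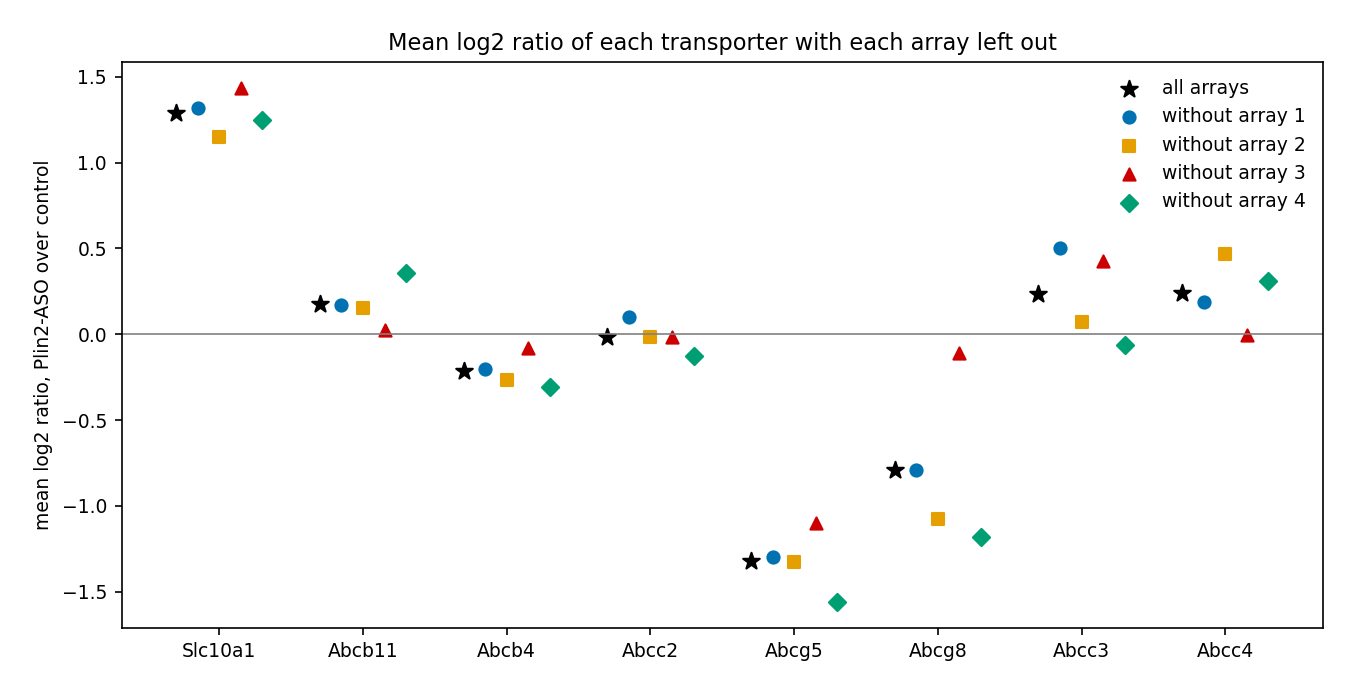
Mean log2 ratio of each transporter (y axis) over all arrays (star) and with each array left out (coloured symbols). Slc10a1 stays between 1.15 and 1.44 and Abcg5 between -1.56 and -1.10, and Abcg8 goes from -0.79 to -0.11 when array 3 is left out.

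The other carriers of the hepatobiliary route included 6 of 17 tested genes that rose and 0 that fell, and the median of the list was 0.47. Slco1a1, a sinusoidal uptake carrier for organic anions and bile acids, rose 28.2-fold (log2 ratio 4.82 ± 0.41, SE, n = 4, adjusted p = 0.00173). Slc22a7 (OAT2), an organic anion carrier, rose 4.30-fold (2.10 ± 0.18, adjusted p = 0.00177). Slc47a1 (MATE1), an exporter of organic cations into bile, rose 1.63-fold. Abcg2 (BCRP), a canalicular pump for sulfated compounds, rose 1.94-fold (adjusted p = 0.0267). Uptake carriers were thus among the genes that rose beside Slc10a1. Over all genes 9.7% were called in either direction, and 1.9%, 2.1%, 32.7% and 5.6% with array 1, 2, 3 or 4 left out, so list counts from those fits stand beside very different shares. Slco1a1 and Slc22a7 passed with any 1 array left out, while the count of the list was 2 without array 1 or array 2, 3 without array 4, and 9 higher and 2 lower without array 3.

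Of the enzymes of bile acid synthesis and conjugation, 3 of 15 rose and 1 fell, with a median of 0.29. Over all genes 3.67% were called higher and 6.07% lower. The sterol hydroxylase Cyp8b1, needed for cholic acid, had ratios of 1.86, 2.32, 2.19 and 2.24 on arrays 1 to 4 (4.45-fold, adjusted p = 0.00126). Cyp27a1, which opens the alternative pathway, rose 2.70-fold (adjusted p = 0.00548), and its ratio was lowest on array 3, as for Slc10a1. Slc27a5, the ligase that prepares bile acids for conjugation, rose 1.65-fold. Cyp39a1, an oxysterol hydroxylase, fell by 1.22 on the log2 scale (adjusted p = 0.0255), though its levels overlapped between the groups. Cyp8b1 and Cyp27a1 passed with any 1 array left out. The call of Slc27a5 ended without array 1 or array 2, and that of Cyp39a1 without array 1 (adjusted p = 0.144) or array 4 (0.0628). The counts without array 1, 2, 3 or 4 were 2, 2, 5 and 4 higher and 0, 1, 1 and 0 lower. In those fits 1.9%, 2.1%, 32.7% and 5.6% of all genes were called in either direction. The larger count without array 3 is therefore not read as a result about these enzymes.

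No gene of the 18 bile acid receptors and nuclear regulators passed the test in limma, and 5 had an unadjusted p under 0.05, all of them higher. The share of all genes under that unadjusted threshold was not counted, so the 5 are not read as a result about the receptors. Without array 3, 5 were called higher and 2 lower, beside the 32.7% of all genes called in that fit, and nothing about the receptors is read from it. Of the 8 LXR target genes tested, 0 rose and 2 fell, with a median of -0.31. Over all genes 3.67% were called higher and 6.07% lower. The other 6 LXR target genes did not pass, and their mean ratios lay on both sides of 0. Lpl, the lipoprotein lipase, fell by 2.41 on the log2 scale (adjusted p = 0.00241), and the cholesterol exporter Abcg1 fell by 1.13 (adjusted p = 0.0141). Lpl passed with any 1 array left out, and Abcg1 did not pass without array 1 or without array 2. Without array 3 the list had 1 gene higher and 3 lower. Lpl and Abcg1 are also expressed in macrophages and other non-hepatocyte cells.

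Of the 13 CAR, PXR and NRF2 target genes, 1 rose and 1 fell, a count close to the share of 9.7% over all genes. Srxn1, which repairs oxidized peroxiredoxins, rose 1.90-fold (adjusted p = 0.0175), and the cytochrome Cyp3a11 fell by 1.23 on the log2 scale (adjusted p = 0.0441). Both calls ended without array 1, 2 or 4, and without array 3 the list had 3 higher and 1 lower, again near the share over all genes in that fit. The list's median by array was -0.59, -0.08, -0.60 and 0.50 on arrays 1 to 4. Of the 17 genes of canalicular scaffolds and trafficking, 3 rose and 1 fell, with a median of 0.09. The apical peptidase Dpp4 rose 2.21-fold (adjusted p = 0.00514), the recycling motor Myo5b rose 1.74-fold and Slc9a3r1 (NHERF1), a scaffold of apical carriers, rose 1.66-fold. Msn (moesin), a membrane-to-actin linker more typical of blood and vascular cells than of hepatocytes, fell by 1.08 on the log2 scale. Without array 1 or array 2 the count was 1 higher and 0 lower, without array 3 it was 4 and 2, and without array 4 it was 2 and 1. With arrays 1, 2, 3 and 4 left out, 1.9%, 2.1%, 32.7% and 5.6% of all genes were called.

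**Figure D4:**
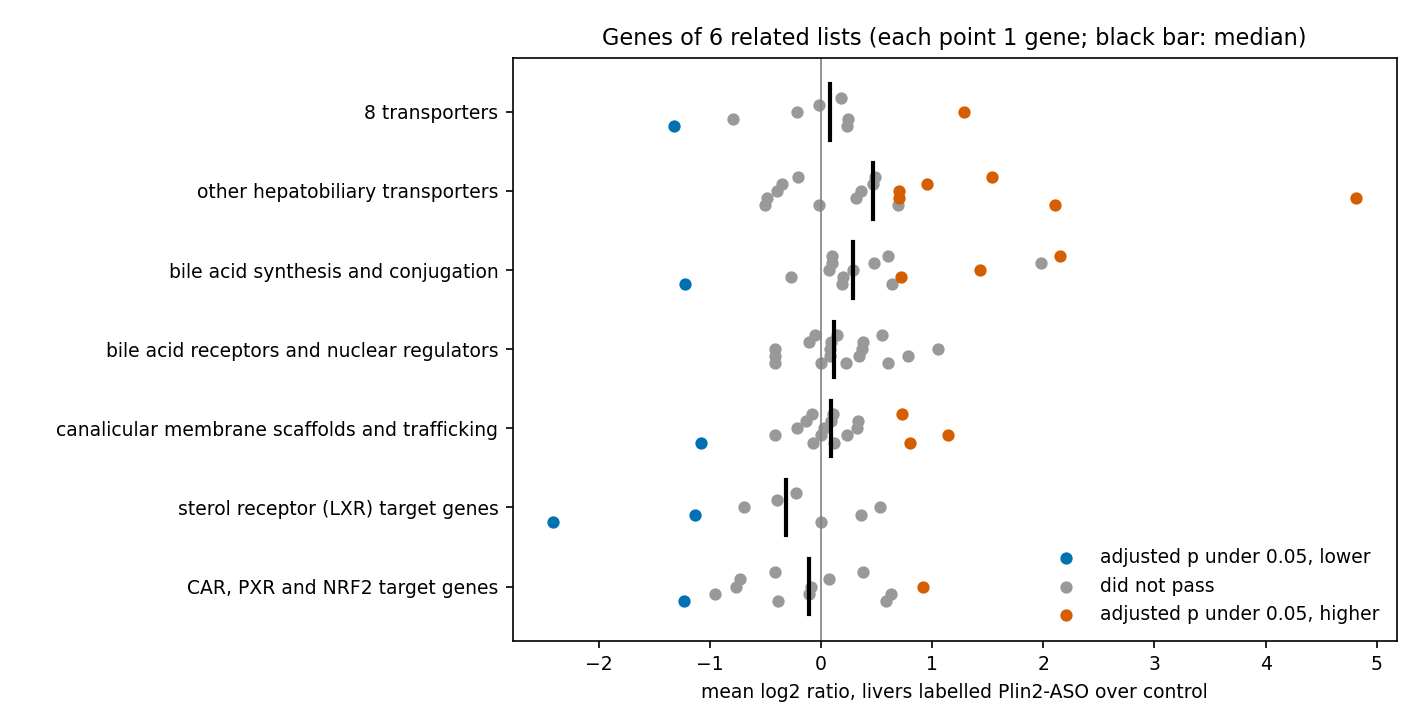
Mean log2 ratio (x axis) of the 8 transporters and of each gene tested in the 6 related lists, with 1 point for each gene and a black bar at the median. Orange and blue points passed the test as higher and lower. The other hepatobiliary transporters have the highest median, 0.47, with Slco1a1 far to the right at 4.82.

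The samples were whole liver, so a change in the number of cells of a type and a change in RNA per cell cannot be told apart. For comparison with the marker counts, 3.67% of all genes tested were called higher and 6.07% lower. Of the hepatocyte markers, 0 of 9 tested rose and 2 fell (Alb and Apob). The summed log2 level of 8 of them was 19.39 to 19.54 in control livers and 18.91 to 19.42 in livers labelled Plin2-ASO. Markers of bile duct cells, which line the ducts downstream of the canaliculi, showed 0 of 9 higher and 3 lower (Spp1, Tspan8 and Krt19). The summed log2 level of the 6 measured on every array was 14.75 to 15.56 in control livers and 13.37 to 13.87 in treated livers, without overlap. Spp1, the brightest of them, went from a mean log2 level of 14.68 to 12.45. Of the stellate cell and fibroblast markers 5 of 9 fell (Col1a1, Col3a1, Lrat, Dcn and Lum; summed level 16.68 to 17.41 against 15.45 to 15.90). Of the endothelial markers 4 of 9 fell (Egfl7, Tie1, Vwf and Pecam1; 14.32 to 14.75 against 13.78 to 14.26). Of the macrophage markers 4 of 8 rose (Cd163, Clec4f, Vsig4 and Marco) and 3 fell (Cd68, Csf1r and Cd5l), and the class did not move in 1 direction. The summed level of the 6 measured on every array was 15.90 to 16.69 against 14.99 to 15.73. Levels were added before the log was taken, so this sum mostly follows Cd5l, whose mean log2 level went from 15.96 to 14.95. Cd163 (8.41 to 11.49) and Vsig4 (8.16 to 10.68) add little to it. The sum also leaves out Clec4f and Marco, whose mean log2 levels went from 11.11 to 13.47 and from 11.20 to 13.68. Of the adipocyte markers 2 of 6 rose (Cfd and Lipe). The list's median log2 ratio was 0.29, -0.09, 1.96 and 0.36 on arrays 1 to 4. Cfd, Adipoq, Plin1 and Fabp4 had their highest ratios on array 3 (6.45, 4.10, 1.96 and 1.69). Plin1 and Fabp4 were below 0 on every other array. Lep was not highest on array 3, and Lipe was not measured there. The summed level of the 5 measured on every array, without Lipe, was 13.72 to 14.62 against 12.72 to 16.01. With arrays 1, 2, 3 and 4 left out in turn, 1.9%, 2.1%, 32.7% and 5.6% of all genes were called in either direction. The larger counts without array 3 are therefore not read as a result about the markers. In these fits the bile duct markers that fell numbered 1, 1, 4 and 3, the stellate markers 2, 2, 6 and 3, and the endothelial markers 0, 0, 8 and 3. The macrophage markers that rose numbered 4, 3, 4 and 4 and those that fell 1, 1, 4 and 2. The adipocyte markers that rose numbered 1, 0, 2 and 0. Of the hepatocyte markers 1, 1, 2 and 1 fell, and 2 rose without array 3. No tested marker was below background in every liver of a group. The marker genes were named after their values were seen, and their part in the results for Slc10a1 and Abcg5 was not tested.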

How the data were processed

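Liver RNA of 8 mice, 4 for each group, was hybridized in pairs to 4 two-colour arrays. Per the labels' protocols, about 50 ng of total RNA was amplified and coupled to Cy3 or Cy5. The mean signal and local background intensity of each spot, deposited by the authors, come from Feature Extraction 9.5.1.1 per the file headers, before background subtraction. The deposited log10 ratios of the same software, red over green, and the authors' series table of log2 ratios, which equals them after conversion (largest difference 0), were used as alternatives with the sign turned.

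The spots were background-corrected by normexp with an offset of 50. Loess within each array, to which control spots gave no weight, then normalized the ratios (limma 3.58.1, R 4.3.3). Each array had 45018 spots, 1639 of them controls, and 0 were saturated. Spots marked as outliers were left out, and spots of a probe were averaged. Probes well above background on at least 3 of 4 arrays in 1 channel were kept (27160). Each gene was read from its brightest kept probe measured on at least 3 arrays. The mean ratio was tested against 0 with lmFit and eBayes (two-sided, 7.21 total degrees of freedom) with Benjamini-Hochberg over 18044 genes. The array is the pair. Nothing beyond the labels' "biological replicate" says how the animals were housed or paired. Levels for each liver are loess and Aquantile log2 intensities. They are not compared between probes. The number of arrays limits the precision.

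Probe names were updated through RefSeq (GRCm38.p6): 22951 probes by accession, 124 by another RefSeq accession, 6582 by symbol and 3077 by an older symbol, while 8440 kept the file's name. Named genes are Plin2, all 8 transporters, and in each of 6 related lists the members that passed, at most the 5 with the smallest p; 1 gene that the rule names is not reported here. The transporters and all lists were chosen with earlier results of these data known. The fit was tested on simulated ratios with known changes and independent noise. The simulation held no array that stood apart and no dye or GC effect, so it does not bear on those. Alternatives covered background, normalization, filters, probe summary, outlier spots, separate channels, array weights, probe GC content and each array left out.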

Additional observations from a re-analysis of the deposited data

How the results depend on the processing

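Slc10a1 stayed higher and past the threshold under all 19 alternatives (log2 ratio 1.15 to 1.44, adjusted p from 2.26e-05 to 0.0443). Abcg5 stayed lower under all 19 (-1.56 to -1.10, adjusted p from 6.42e-05 to 0.0847), but the count of transporters called lower was 0 on the authors' series table and ranged from 0 to 1 with an array left out. Abcb11 lay between 0.0223 and 0.3589 over its alternatives. Abcb4 lay between -0.3075 and 0.035, where the mean of all kept probes turned it to the last value. Abcc2 turned to 0.127 with median centring, 0.0156 with the software's ratios and 0.0624 with the GC correction in the paired fit with its replicate block. With an array left out, Abcc2 ranged from -0.125 to 0.0978, Abcc3 from -0.0631 to 0.4999 and Abcc4 from -0.0066 to 0.466. Over all genes 1758 were called changed, 3000 at an adjusted p under 0.1, 7048 with array quality weights (0.216 for array 3, against 0.838 to 2.85 for the others), and 351 to 5908 with an array left out (380 without array 2, 1005 without array 4). The cause of these changes was not tested, other than that fewer arrays or another threshold enter by construction. The array pairs the livers by design. Read as separate channels, the transporter calls were the same with no replicate block (1821 genes called) and with the intraspot correlation of 0.135 as the replicate block (2253 genes called). Signal over background limits Abcc4 most, whose second probe was well above background in 0 of the treated livers.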

Other observations

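Abcc3 had its highest ratios on arrays 2 and 4, and so did 7 of the 11 CAR, PXR and NRF2 target genes measured on every array. The same order held for 4 of 8 hepatocyte markers, 5 of 13 genes of bile acid synthesis and conjugation and 2 of 8 LXR target genes. It held for 2 of 12 scaffold genes, 2 of 15 receptors and regulators and 3 of 15 other hepatobiliary transporters. Each other marker list had at most 1 such gene. The order was thus not particular to the CAR, PXR and NRF2 target genes, and its share over all genes was not counted. The other 4 of the 11 target genes, Srxn1, Hmox1, Gclc and Aldh1a1, did not. This order of arrays was noticed in the data and was not tested. Of the genes that have it, 3 were singled out after their values were seen. The receptor gene Nr1i3 (CAR) read 0.67, 1.46, 0.15 and 1.92 as the log2 ratio from array 1 to array 4, a mean of 1.05 ± 0.28 (SE, n = 4, adjusted p = 0.0616 in limma). Its target Cyp2b10 had -1.21, 2.68, -0.13 and 1.16 (mean 0.63 ± 0.55, adjusted p = 0.513). Slco1a4, a sinusoidal anion carrier, had 0.53, 2.26, 0.83 and 2.52 and was the sixth carrier that rose (2.90-fold, adjusted p = 0.0364). Its call ended without array 1 (adjusted p = 0.0533), array 2 (0.164) or array 4 (0.0967). Unlike Abcc3, Nr1i3 and Slco1a4 had ratios above 0 on all 4 arrays.

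Nr0b2 (SHP), a repressor induced by FXR, had ratios of 0.40, 1.03, 0.53 and 0.45, higher on 4 of 4 arrays, with a mean of 0.60 ± 0.15 (SE, n = 4, adjusted p = 0.0519). Nr1h4, which codes for FXR, had a mean of 0.09 ± 0.18 (SE, n = 3, adjusted p = 0.791). Cyp7a1, the rate-limiting enzyme of the classic bile acid pathway, had 0.48, 0.50 and 0.93 on arrays 1, 2 and 4 (mean 0.64 ± 0.17, adjusted p = 0.072). Slc51b (OST-beta), a partner in bile acid efflux on the blood side, had a mean of -0.50 ± 0.14 (SE, n = 4, adjusted p = 0.067), lower on 4 of 4 arrays. It was dim, with mean log2 levels of 8.51 and 8.01, and was well above background in 3 of 4 livers labelled Plin2-ASO. Its partner Slc51a (OST-alpha) went the other way, with 0.42, 0.40 and 0.64 on arrays 1, 2 and 4 (mean 0.48 ± 0.16, SE, n = 3, adjusted p = 0.111). None of these genes passed the threshold.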
